A study of Homo sapiens with 11 samples.

Results

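AA132 and AA147 were compared with each other at the same concentration, 10 µM, and the same time, 6 h. The groups compared held 6 of the 33 RNA sequencing libraries of the series, 3 for AA132 and 3 for AA147. These libraries were taken by the compound and dose in the column names. All libraries came from wild-type HEK293T cells, a widely used line of embryonic kidney origin, grown in DMEM with serum and treated in culture. The AA132 group received AA132 at 10 µM and the AA147 group AA147 at 10 µM. Vehicle libraries (0.1% DMSO, n = 3) served as the common reference. The other conditions were AA132 at 0.1, 0.3, 1, 3, 6, 15 and 30 µM and thapsigargin (Tg) at 500 nM, which empties the endoplasmic reticulum (ER) of calcium by blocking its uptake pump, each for 6 h with 3 libraries. Both are small molecules known as ER proteostasis regulators, and this was the only pair of compounds given at a shared dose (1 pair). The labels list 1 sample per condition where the table gives 3 numbered columns, with no word on whether these are separate cultures. The p-values below therefore measure only the spread between these libraries, which may be technical.

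Misfolded protein in the ER activates the unfolded protein response, which has 3 arms. ATF6, a membrane-bound transcription factor released by cleavage, mainly raises ER chaperones. IRE1 splices the mRNA of XBP1, whose product raises genes of protein translocation, folding and degradation, and PERK slows translation and raises ATF4, which drives genes of amino acid supply and the factor CHOP. Damage to proteins and redox balance outside the ER is read by other systems: HSF1 raises cytosolic chaperones, and NRF2 raises antioxidant genes such as the heme oxygenase gene HMOX1. The aryl hydrocarbon receptor (AHR) binds many planar small molecules and raises cytochrome P450 genes.

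A set of 4 promoters is shown because their genes stand for responses compared below and their windows hold a match to the element known for that response: HSPA6 for heat shock, HSP90B1 and HSPA5 for the ATF6 arm, and ASNS for amino acid supply. The windows of DNAJB9 and CYP1A1 held none of the motifs searched and are not shown. Each runs 5′ to 3′ on the gene's strand, from 250 bases before to 50 after the start site, and comes from RefSeq on GRCh38.p14. Capitals mark a match on either strand to 1 motif per gene: the heat shock element in HSPA6 (chr1:161524290-161524589, plus strand), the ER stress response element in HSP90B1 (chr12:103930160-103930459, plus strand) and HSPA5 (chr9:125241294-125241593, minus strand), and the composite C/EBP-ATF element in ASNS (chr7:97872359-97872658, minus strand).
HSPA6: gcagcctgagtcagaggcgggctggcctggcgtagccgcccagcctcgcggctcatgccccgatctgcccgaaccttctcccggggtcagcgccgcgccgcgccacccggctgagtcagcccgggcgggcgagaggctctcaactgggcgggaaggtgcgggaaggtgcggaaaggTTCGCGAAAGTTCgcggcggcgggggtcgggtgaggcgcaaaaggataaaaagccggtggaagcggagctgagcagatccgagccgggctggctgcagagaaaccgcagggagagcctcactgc
HSP90B1: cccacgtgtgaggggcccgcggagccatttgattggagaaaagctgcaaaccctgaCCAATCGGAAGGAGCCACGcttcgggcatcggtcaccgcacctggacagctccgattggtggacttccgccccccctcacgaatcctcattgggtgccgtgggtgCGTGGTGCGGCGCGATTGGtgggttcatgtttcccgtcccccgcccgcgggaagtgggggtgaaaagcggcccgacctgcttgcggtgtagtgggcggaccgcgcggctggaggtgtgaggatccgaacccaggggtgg
HSPA5: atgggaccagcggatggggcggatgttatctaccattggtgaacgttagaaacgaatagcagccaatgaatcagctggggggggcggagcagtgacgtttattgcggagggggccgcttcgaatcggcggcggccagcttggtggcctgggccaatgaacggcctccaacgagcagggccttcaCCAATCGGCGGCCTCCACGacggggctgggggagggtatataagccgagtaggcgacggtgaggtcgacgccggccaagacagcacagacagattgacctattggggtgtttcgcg
ASNS: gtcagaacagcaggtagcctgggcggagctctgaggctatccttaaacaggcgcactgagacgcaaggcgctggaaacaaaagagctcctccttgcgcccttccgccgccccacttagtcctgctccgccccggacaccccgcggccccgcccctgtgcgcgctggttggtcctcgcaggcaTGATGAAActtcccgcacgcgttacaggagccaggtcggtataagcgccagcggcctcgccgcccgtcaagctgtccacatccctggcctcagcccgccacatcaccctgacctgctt

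The heat shock element was searched as GAA, TTC and GAA with 2 bases of any kind between units, and was present in 0.487% of 27305 promoter windows. In HSPA6 it lay from -74 to -62 relative to the start site. HSPA6 also held a match, left in lower case at -141 to -133, to the antioxidant response element letters TGACNNNGC, which were in 13.6% of windows. The ER stress response element, CCAAT and CCACG with 9 bases between them, was present in 0.0806% of windows. HSP90B1 held it at -194 to -176 and at -89 to -71, and HSPA5 at -66 to -48. The ASNS match to TGATGNAA, letters found in 3.67% of windows, lay from -68 to -61. Of the 13 genes of the ATF6 list below, all with a window, 5 held the ER stress response element (HSPA5, HSP90B1, CALR, CRELD2 and XBP1). A further 3 (HYOU1, SDF2L1 and HERPUD1) held its second form, ATTGG and CCACG with 1 base between them, which was in 0.0549% of windows. The heat shock element was in 5 of 22 matched heat shock genes (HSPA6, HSPA8, DNAJA1, CHORDC1 and SERPINH1). A match is a description of the letters and not a measured site.

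Before the results, the libraries were checked. Totals of the 6 libraries ran from 32.3 to 37.5 M counts, the lowest being AA132 library 3. Levels below are CPM, the usual scaling of counts to library size, with edgeR's TMM factors, which adjust for the make-up of each library. Replicate columns did not agree within counting error: the chi-square per degree of freedom, about equal to the ratio of observed to counting variance, was 6.89 to 39.1 for pairs of AA132 libraries and 5.06 to 24.8 for AA147. In both groups library 1 stood apart from the other two. So did vehicle library 1, whose pairs were at 49.9 and 64.5 against 7.93 for the other pair. The 8 genes known from HEK293T cells, among them NEFL, VIM, KRT8 and KRT18, had counts in all 6 libraries. They summed to 2763 to 3177 CPM under AA132 and 2799 to 2931 under AA147 (raw CPM). VIM and KRT8 were the highest, averaging 1369 and 879.7 CPM under AA132 and 1244 and 875.2 CPM under AA147. NEFL averaged 65.1 CPM under AA132 and 67.05 under AA147, and PAX2 only 0.93 and 0.85 CPM. Of 8 markers of other cell types, CD3E and ALB were at 0, PTPRC, PECAM1 and MYH7 had at most 3 counts in a library, and EPCAM, COL1A1 and CD68 had counts in every library. Those 8 summed to 183.2 to 189.3 CPM under AA132 and 177 to 192.4 under AA147. EPCAM, averaging 143.2 CPM under AA132 and 133.7 under AA147, was above NEFL, NEFM, INA and PAX2 of the HEK293T genes.

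Few genes passed the test between the compounds, and most of those were higher under AA132. Of 17792 genes tested, 12 differed (edgeR quasi-likelihood test, Benjamini-Hochberg adjusted p under 0.05), or 0.0674% of genes. They were 10 genes higher under AA132 (0.0562%) and 2 lower (0.0112%). At an unadjusted p under 0.05 there were 1426 genes (8.01%), 806 higher and 620 lower. The 12 belong to several systems: the ER chaperones HSP90B1 and DNAJB9, the vesicle cargo protein gene TMED2, the asparagine synthetase gene ASNS, the heat shock gene HSPA6, the cell cycle inhibitor gene CDKN1A, and ANKRD1, TAC1, STAC, TVP23C-CDRT4, CADPS2 and PIK3C2B. In all 12 the 3 AA132 libraries lay wholly above or wholly below the 3 AA147 libraries. Over all genes, 973 (5.47%) were separated with AA132 above and 1031 (5.79%) with AA132 below.

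**Figure D1:**
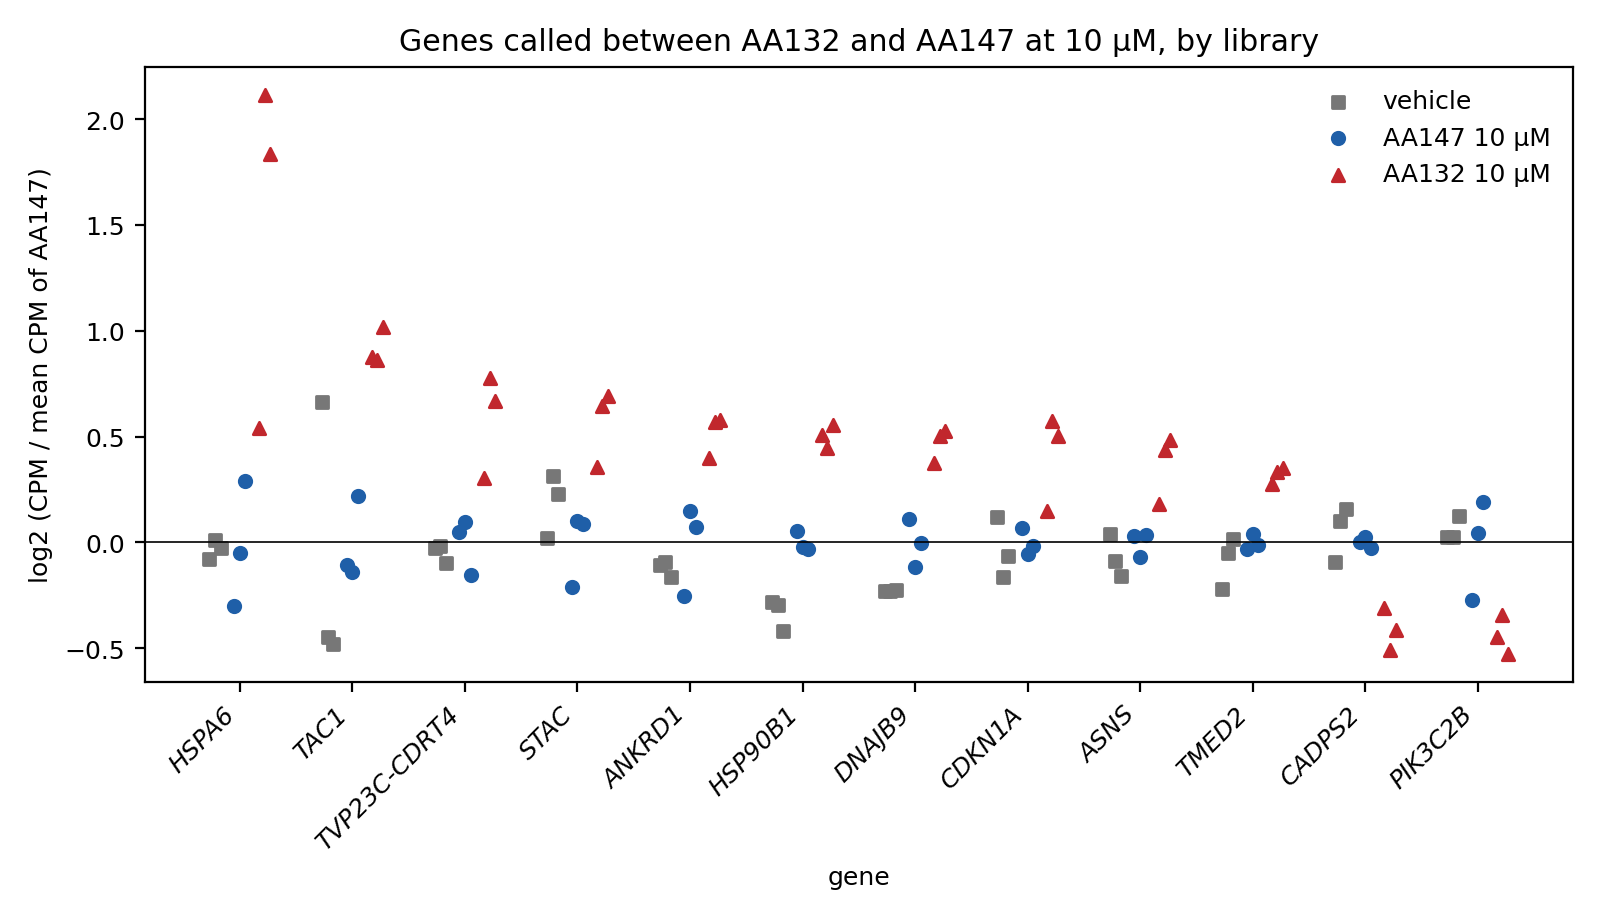
Log2 ratio of CPM to the mean CPM of AA147 (y axis) for the 12 genes that differed (x axis), with 1 point per library of vehicle (grey squares), AA147 10 µM (blue circles) and AA132 10 µM (red triangles). For HSPA6 the lowest AA132 library, at 2.51 CPM, lies just above the highest AA147 library, at 2.11 CPM, while CADPS2 and PIK3C2B lie below the AA147 libraries.

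HSPA6 (chromosome 1, 161524540 to 161526894) encodes an HSP70 chaperone that is nearly silent without stress. AA132 libraries 1, 2 and 3 had 2.51, 7.48 and 6.16 CPM, AA147 libraries 1.40, 1.67 and 2.11 CPM, and vehicle 1.63, 1.74 and 1.70 CPM. AA132 libraries 2 and 3 were far above the rest, library 1 only slightly so, and the AA147 libraries spanned the vehicle level. The fold over AA147 was 3.11, a log2 difference of 1.64 (95% interval 1.14 to 2.14, edgeR adjusted p = 0.00271). HSPA7 is a near-identical copy of HSPA6, so the assignment of reads to HSPA6 is uncertain.

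HSP90B1 (chromosome 12, 103930107 to 103953931) encodes GRP94, the HSP90 of the ER. AA132 libraries had 2214, 2120 and 2289 CPM, AA147 libraries 1613, 1533 and 1521 CPM, and vehicle 1280, 1267 and 1164 CPM. The 3 groups formed separate bands with AA147 in the middle. The means were 2208 ± 84.3 under AA132 and 1556 ± 49.99 CPM under AA147 (SD, n = 3), a log2 difference of 0.50 (0.33 to 0.68, edgeR adjusted p = 0.0167). DNAJB9 (chromosome 7, 108569867 to 108574850) encodes ERdj4, a BiP co-chaperone and a well-known XBP1s target. Its AA132 libraries had 14.2, 15.5 and 15.8 CPM, its AA147 libraries 11.8, 10.1 and 10.9 CPM, and its vehicle libraries 9.34, 9.34 and 9.39 CPM. Here too the groups did not overlap, and the log2 difference was 0.47 (0.29 to 0.65, edgeR adjusted p = 0.0177). TMED2 (chromosome 12, 123584533 to 123598582), a cargo adaptor of ER to Golgi vesicles, had 193, 201 and 203 CPM under AA132, 156, 164 and 158 CPM under AA147, and 137, 154 and 161 CPM in vehicle. Its AA147 libraries overlapped vehicle while its AA132 libraries were above both (0.32, 0.19 to 0.45, edgeR adjusted p = 0.0250).

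ASNS (chromosome 7, 97851677 to 97872542), the asparagine synthetase gene and a target of ATF4, had 223, 265 and 274 CPM under AA132, 200.3, 187 and 201 CPM under AA147, and 201, 185 and 175 CPM in vehicle. The AA147 libraries overlapped the upper part of the vehicle range, and the AA132 libraries lay above both (log2 difference 0.37, 0.23 to 0.51, edgeR adjusted p = 0.0177). CDKN1A (chromosome 6, 36676460 to 36687337), which encodes the cell cycle inhibitor p21, had 73.9, 99.2 and 94.4 CPM under AA132 and 69.8, 64.2 and 65.8 CPM under AA147 (0.42, 0.25 to 0.60, edgeR adjusted p = 0.0424). Its AA132 library 1 lay close to the AA147 range. ANKRD1 (chromosome 10, 90912096 to 90921087), an ankyrin-repeat protein gene known as a target of YAP, had 155, 175 and 176 CPM under AA132, 99.1, 131 and 124 CPM under AA147, and 109.7, 111 and 105 CPM in vehicle. The AA147 libraries lay on both sides of vehicle (0.52, 0.33 to 0.71, edgeR adjusted p = 0.0177).

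The other genes higher under AA132 were expressed at low levels. TAC1 (chromosome 7, 97732084 to 97740472), the precursor gene of substance P, had 5.70, 5.64 and 6.29 CPM under AA132 and 2.89, 2.82 and 3.62 CPM under AA147 (log2 difference 0.92, 0.54 to 1.29, edgeR adjusted p = 0.0315). Its vehicle libraries were uneven, with 4.93 CPM in library 1 against 2.28 and 2.23 CPM. STAC (chromosome 3, 36380503 to 36548007), an SH3-domain adaptor gene, had 6.67, 8.15 and 8.43 CPM under AA132 and 4.50, 5.59 and 5.54 CPM under AA147 (0.57, 0.33 to 0.81, edgeR adjusted p = 0.0457). Its vehicle libraries had 5.29, 6.49 and 6.10 CPM. Neither compound passed against vehicle in STAC, with AA132 at 0.38 (edgeR adjusted p = 0.109) and AA147 at -0.19 (0.814). TVP23C-CDRT4 (chromosome 17, 15436021 to 15563561) is a locus that reads through 2 neighbouring genes, so the assignment of its reads is uncertain. It had 14.5, 20.1 and 18.6 CPM under AA132 and 12.1, 12.5 and 10.5 CPM under AA147 (0.60, 0.38 to 0.81, edgeR adjusted p = 0.0167).

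Lower under AA132 were CADPS2 (chromosome 7, 122318411 to 122886759), which primes secretory vesicles for release, and PIK3C2B (chromosome 1, 204422628 to 204494805), a class II phosphoinositide 3-kinase gene. CADPS2 had 31.2, 27.1 and 29.0 CPM under AA132, 38.7, 39.3 and 37.9 CPM under AA147, and 36.2, 41.4 and 43.1 CPM in vehicle. PIK3C2B had 17.0, 18.3 and 16.1 CPM under AA132, 19.2, 23.9 and 26.5 CPM under AA147, and 23.6, 23.6 and 25.2 CPM in vehicle. In both genes the AA132 libraries lay below every AA147 and vehicle library. The log2 differences from AA147 were -0.41 (-0.56 to -0.25, edgeR adjusted p = 0.0177) and -0.44 (-0.61 to -0.26, edgeR adjusted p = 0.0314).

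Single libraries decided how many genes were called. Without AA132 library 2 there were 0 calls by edgeR, with 1634 genes at an unadjusted p under 0.05. HSPA6 was the 1 call without AA132 library 3 or without AA147 library 3, and HSPA6, ANKRD1 and TVP23C-CDRT4 were the 3 calls without AA147 library 2. Without AA147 library 1 there were 24 calls, 8 of them among the 12, and without AA132 library 1 there were 77, with all 12 among them. Without vehicle library 1, which enters the fit only through the shared spread and scaling, there were 53, again with all 12. With library 1 of both compounds left out, there were 19 calls, 8 of them among the 12, and ANKRD1, STAC, TAC1 and TMED2 lost theirs. All 12 were lost when only the 2 conditions entered the fit. DESeq2 called 66 genes, 43 higher and 23 lower, with all 12 among them.

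The 5 largest differences each way were taken among genes with an unadjusted p under 0.05, no overlap between libraries and a mean of 1 CPM or more under the compound with the higher level, and most were in genes of low level that did not pass the test. Genes outside these limits had larger fitted differences. Besides HSPA6 and HMOX1, those with the largest positive differences were LINC00624, a long noncoding RNA gene (log2 difference 1.11, edgeR adjusted p = 0.453), CLCF1, a cytokine gene (1.03, 0.412), and DNAH17-AS1 (1.01, 0.0662), which is antisense to DNAH17. The largest negative differences were those of EBF2 (-1.04, edgeR adjusted p = 0.313), B3GALT1 (-0.98, 0.241), LOC100288911 (-0.86, 0.317), GFRA3 (-0.84, 0.371) and PRKG1-AS1 (-0.80, 0.334), each with at most 2.97 CPM in any of the 6 libraries. CLCF1 ran from 0.968 to 1.16 CPM under AA132 and from 0.486 to 0.556 CPM under AA147. Whether the counting used strand is not stated, so reads of DNAH17-AS1 and PRKG1-AS1 cannot be told apart from those of DNAH17 and PRKG1.

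Genes of the ATF6 arm were together higher under AA132 than under AA147. All 13 listed genes had a positive difference, with a median of 0.37 on the log2 scale against 0.00 for all genes tested, of which 51.3% were positive. The libraries did not overlap in 11 of the 13, beside 5.47% of all genes. HSP90B1 was the 1 member that passed the test (0.0674% of all genes did). The list was already known to be higher when it was written, so its count is not independent evidence of its direction. HSPA5 (chromosome 9, 125234853 to 125241382) encodes BiP, the HSP70 of the ER that holds ATF6 inactive. It had 1854, 2687 and 2836 CPM under AA132 and 1411, 1640 and 1634 CPM under AA147, with vehicle at 1025, 973 and 881 CPM. AA132 library 1 lay nearer to the AA147 libraries than to its own replicates. The log2 difference was 0.65 (0.34 to 0.97) and did not pass the test (edgeR adjusted p = 0.106). PDIA4 (chromosome 7, 149003062 to 149028662), an ER disulfide isomerase gene, had 790.03, 925 and 872 CPM under AA132 and 668, 593 and 581 CPM under AA147 (0.49, edgeR adjusted p = 0.0662). MANF (chromosome 3, 51385291 to 51389397), an ER-resident trophic factor gene, had 157, 182 and 223 CPM against 137, 129 and 128 CPM (0.51, edgeR adjusted p = 0.103). DNAJB11 (chromosome 3, 186567403 to 186585800), which encodes a BiP co-chaperone, had 253, 279 and 295 CPM against 218, 202 and 216 CPM (0.38, edgeR adjusted p = 0.0860). In each of these genes every AA132 library was above every AA147 library. The smallest difference of the list was 0.20, in SEL1L.

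**Figure D2:**
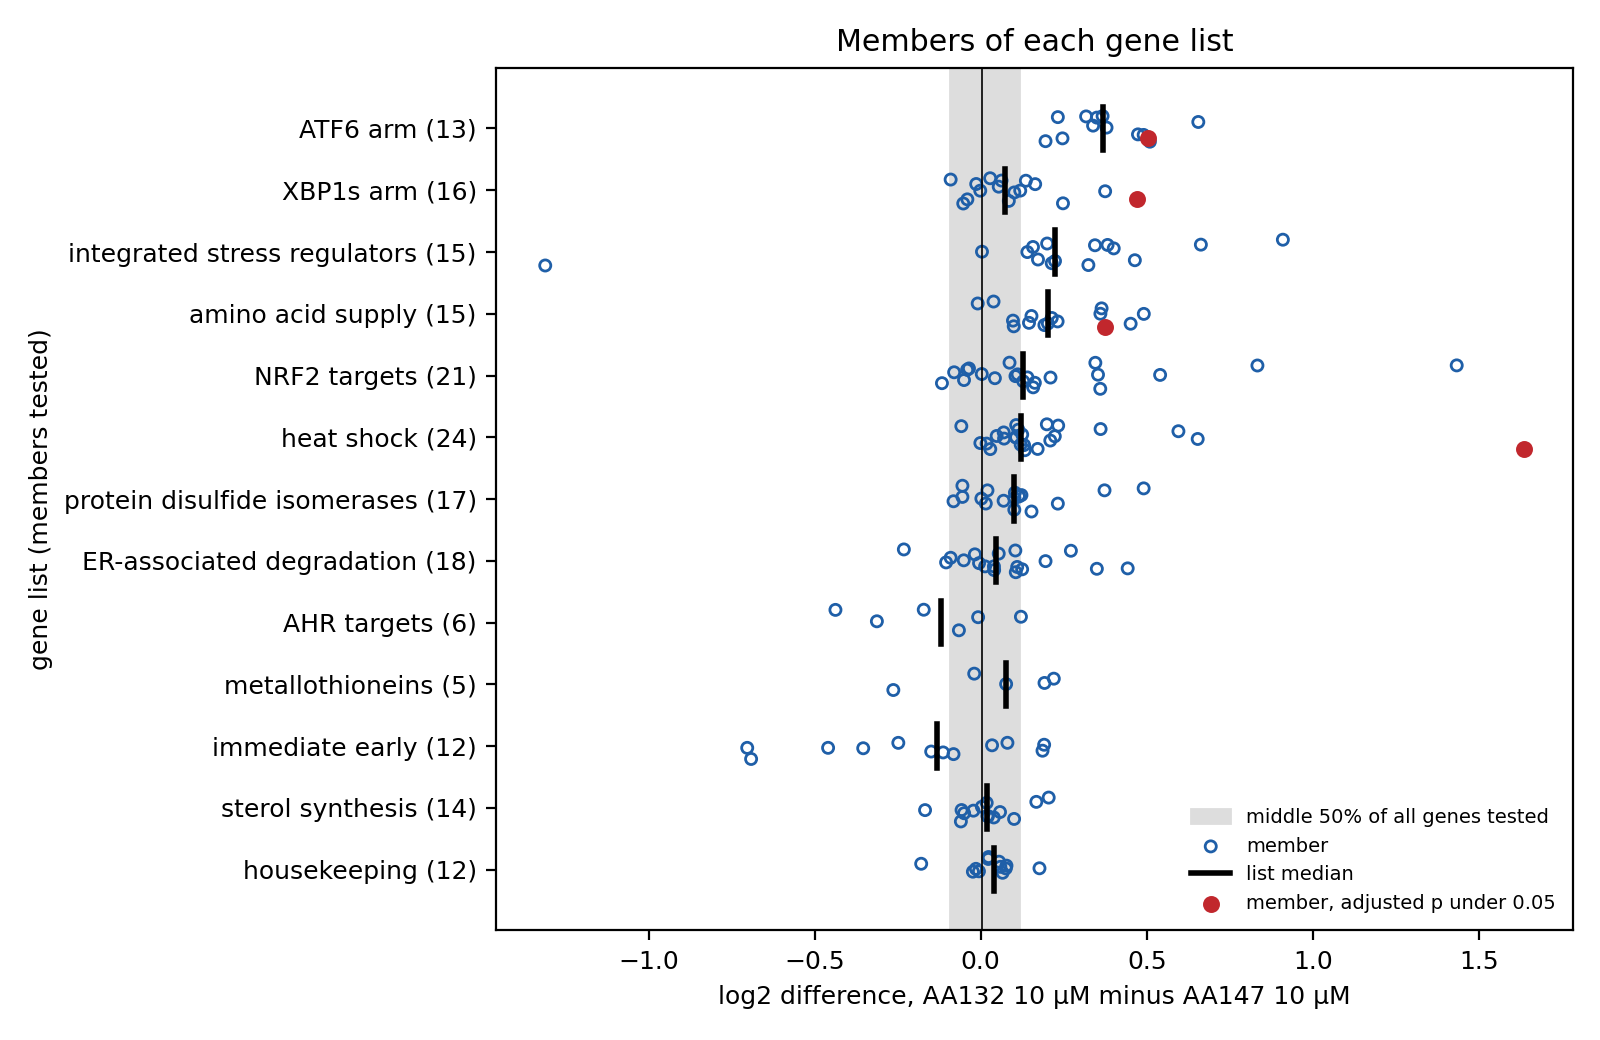
Log2 difference between AA132 and AA147 at 10 µM (x axis) for the tested members of 13 gene lists (y axis, number of members in brackets), with black bars at list medians, filled red points for members with an adjusted p under 0.05 and a grey band for the middle 50% of all genes. The ATF6 members all lie above 0 with a median of 0.37, while sterol synthesis and housekeeping members centre near 0.

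Genes linked to XBP1s had a lower median than the ATF6 list, 0.07, with 11 of 16 members higher and 5 lower. The libraries did not overlap in 4, all with AA132 above, or 25% of members beside 5.47% of all genes. DNAJB9 was the member that passed. DNAJC3 (chromosome 13, 95677139 to 95794988), which encodes the co-chaperone p58IPK, had 24.4, 25.3 and 23.6 CPM under AA132 and 19.5, 18.4 and 18.6 CPM under AA147, with no overlap (0.37, edgeR adjusted p = 0.369). SRPRB, a receptor subunit for the signal recognition particle, differed by 0.25 and SEC63, a translocon component, by 0.16 (edgeR adjusted p = 0.295 and 0.477). Among 18 genes of ER-associated degradation, 12 were higher and 6 lower, with a median of 0.05 (0.026 without AA147 library 2 and 0.075 without AA147 library 1). DERL3 (0.44), HERPUD1 (0.35), the selenoprotein S gene, listed as VIMP (0.27), SEL1L (0.20) and the ubiquitin-conjugating enzyme gene UBE2G2 (0.10) had AA132 above AA147 in every library, while DERL1 had AA132 below (-0.23). These are 27.8% and 5.56% of the 18, beside 5.47% and 5.79% of all genes. None of the 18 passed (edgeR adjusted p at least 0.234). Of 17 tested members of the protein disulfide isomerase list 14 were higher, with a median of 0.10. PDIA4, the ER oxidase gene ERO1B, PDIA6 and DNAJC10 (0.49, 0.37, 0.23 and 0.10) did not overlap (23.5% of members, beside 5.47% of all genes), and none passed. ERP27, the eighteenth member, had at most 1 count in these libraries and was not tested.

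For the integrated stress response, which PERK shares with other eIF2α kinases, 14 of 15 regulator genes were higher under AA132, with a median of 0.22 (0.43 without AA132 library 1), and 0 passed by edgeR. At an unadjusted p under 0.05, 10 were higher and 1 was lower (8.01% of all genes had such a p in either direction). The lower gene, GDF15, named after its values were seen, encodes a secreted stress cytokine and had the largest difference of the list. It had 0.366, 0.054 and 0.160 CPM under AA132, 0.768, 0.430 and 0.270 CPM under AA147, and 0.166, 0 and 0 CPM in vehicle, with overlap between the compounds (-1.31, -2.44 to -0.18, edgeR adjusted p = 0.514). DDIT3 (chromosome 12, 57516588 to 57521737) encodes CHOP. It had 23.4, 18.4 and 18.3 CPM under AA132 and 18.3, 10.7 and 9.0 CPM under AA147, with vehicle at 8.40, 8.28 and 6.89 CPM. Library 1 of each compound was the highest of its group, so that the lowest AA132 and the highest AA147 library were both at 18.3 CPM although the means were 20.1 and 12.7 CPM (0.66, 0.32 to 1.01, edgeR adjusted p = 0.143). CEBPG, a partner of ATF4, did not overlap (51.6, 62.6 and 69.7 CPM against 46.4, 44 and 48.8 CPM, edgeR adjusted p = 0.237). PPP1R15A, which encodes the phosphatase subunit GADD34, had 92.9, 126 and 126 CPM under AA132, 82.4, 98.8 and 94.1 CPM under AA147, and 119, 111 and 104 CPM in vehicle (0.32, edgeR adjusted p = 0.218). Its AA147 libraries lay below vehicle, while its AA132 libraries lay on both sides of it. The secreted stanniocalcin gene STC2 differed by 0.34 (edgeR adjusted p = 0.241). ATF4 itself differed by 0.14 (-0.0023 to 0.28, edgeR adjusted p = 0.634).

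Amino acid supply genes, many of them ATF4 targets, had a median difference of 0.20. Of 15, 14 were higher, the libraries did not overlap in 6 (40% of members, beside 5.47% of all genes), and ASNS passed (0.0562% of all genes were called higher). CBS, which starts transsulfuration, had 24.2, 24.4 and 24.8 CPM under AA132 and 18.3, 20.4 and 18.4 CPM under AA147 (0.36, edgeR adjusted p = 0.0829). SLC3A2, the heavy chain shared by several amino acid transporters, had 277, 435 and 450.4 CPM against 267, 265 and 296 CPM (0.49, edgeR adjusted p = 0.143). AA132 library 1 fell within the AA147 range there. PYCR1, a proline synthesis gene, differed by 0.45 with no overlap (edgeR adjusted p = 0.237).

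In the NRF2 list most genes were higher under AA132, and HMOX1 had the largest difference. Of 21 members 16 were higher, the median was 0.13, the libraries of 4 did not overlap (19.0%, beside 5.47% of all genes), and 0 passed by edgeR. An unadjusted p under 0.05 was found for 7, beside 8.01% of all genes. HMOX1 (chromosome 22, 35380361 to 35394214) had 70.7, 126 and 118 CPM under AA132, 50.4, 32.9 and 33.1 CPM under AA147, and 16.4, 11.1 and 11.9 CPM in vehicle. Every AA132 library was above every AA147 library, and every AA147 library above vehicle. Library 1 was the lowest under AA132 and the highest under AA147, so the spread within groups was wide. The fold over AA147 was 2.70 (log2 difference 1.43, 0.80 to 2.06, edgeR adjusted p = 0.0662). SLC7A11 (chromosome 4, 138164097 to 138242349), the cystine transporter gene, had 20.03, 18.9 and 21.4 CPM against 13.8, 9.39 and 10.7 CPM, with vehicle between 2.74 and 6.35 CPM (0.83, 0.27 to 1.39, edgeR adjusted p = 0.365). TXNRD1, thioredoxin reductase, had 307, 403 and 458 CPM against 302, 304 and 313 CPM (0.35, edgeR adjusted p = 0.237), so that library 1 under AA132 was within the AA147 range. SRXN1, sulfiredoxin, differed by 0.35 (edgeR adjusted p = 0.419).

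In the heat shock list HSPA6 had the largest fitted difference. Of 24 heat shock genes 22 were higher, with a median of 0.12, 3 did not overlap (HSPA6, CHORDC1 and SERPINH1, 12.5% of members beside 5.47% of all genes), and HSPA6 passed. HSPA1A and HSPA1B (chromosome 6, 31815543 to 31817946 and 31827738 to 31830254) encode the main stress-induced HSP70. As near-identical copies, they cannot be separated with certainty. HSPA1A had 1493, 2852 and 2673 CPM under AA132 and 1239, 1558 and 1666 CPM under AA147. AA132 library 1 was inside the AA147 range and the other AA132 libraries were above it (0.65, 0.30 to 1.01, edgeR adjusted p = 0.188). DNAJB1 (chromosome 19, 14514769 to 14560391), the HSP40 partner, had 146, 171 and 176 CPM against 156, 149 and 150 CPM. Its interval, -0.02 to 0.24 on the log2 scale, spans 0 (difference 0.11, edgeR adjusted p = 0.696).

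AA132 library 1 was lower than its replicates across these lists. Relative to the mean of AA147, the median difference of the ATF6 genes was 0.20, 0.47 and 0.49 in AA132 libraries 1, 2 and 3. It was 0.07, 0.42 and 0.32 for the regulators of the integrated stress response, 0.04, 0.27 and 0.31 for amino acid supply, 0.03, 0.22 and 0.20 for NRF2 targets, and 0.02, 0.15 and 0.23 for heat shock. Library 1 was the lowest of the 3 in 11 of 13 ATF6 genes, 13 of 15 amino acid genes and 17 of 24 heat shock genes, against 39.9% of all genes. It was also the lowest in 8 of 12 housekeeping genes and in 7 of the 8 genes known from HEK293T cells. Not every list went this way: library 1 was the lowest in 0 of 5 tested metallothionein list genes and 3 of 14 sterol synthesis genes. With library 1 of both compounds left out, the medians were 0.48 for ATF6, 0.35 for the integrated stress regulators, 0.30 for amino acid supply, 0.18 for NRF2 targets and 0.19 for heat shock. These are larger than with all libraries. What set library 1 apart was not tested.

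No difference between the compounds was detected in genes of the AHR. CYP1A1 (chromosome 15, 74719542 to 74725536), the cytochrome P450 gene most used to read this receptor, had 0.811, 0.243 and 0.415 CPM under AA132 and 0.503, 0.780 and 0.730 CPM under AA147. Both sets lay below the vehicle libraries, at 2.74, 2.23 and 2.12 CPM, and they overlapped each other. The log2 difference was -0.44, with an interval from -1.15 to 0.27 that holds both no difference and a more than 2-fold lower level under AA132 (edgeR adjusted p = 0.802). CYP1B1, a related P450 gene, had 2.30, 2.29 and 3.45 CPM under AA132, 2.73, 3.42 and 3.78 CPM under AA147, and 6.62, 7.79 and 9.12 CPM in vehicle (-0.31, -0.81 to 0.18, edgeR adjusted p = 0.797). TIPARP, which encodes a feedback inhibitor of the receptor, had 20.7, 21.0 and 22.2 CPM under AA132 and 24.9, 24.6 and 22.5 CPM under AA147, against 32.9 to 45.3 CPM in vehicle, with AA132 just below AA147 in every library (-0.17, -0.47 to 0.13, edgeR adjusted p = 0.827). The 6 tested genes of the list had a median of -0.12, 5 being lower, and 0 passed by edgeR (0 also at an unadjusted p under 0.05). Leaving out 1 library of either compound put that median between -0.27 and -0.06.

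Each compound was also set against the same 3 vehicle libraries, so the values of the compounds share that reference and are given side by side only. AA132 at 10 µM gave 250 called genes (1.41%) and AA147 gave 4 (0.0225%), counts that do not test the difference between the compounds. With only the 2 compounds and vehicle in the fit they were 33 and 0 by edgeR (973 and 418 genes at an unadjusted p under 0.05). They were 489 and 26 with DESeq2, and 430 and 89 with no filter on low counts. Without vehicle library 1 they were 651 and 11, and without AA132 library 3 that for AA132 was 156. Without vehicle library 2 that for AA147 was 2, and leaving out any 1 AA147 library gave 0 by edgeR (1019 to 1292 genes had an unadjusted p under 0.05). HSPA5 differed from vehicle by 1.36 under AA132 (edgeR adjusted p = 2.65e-06) and 0.70 under AA147 (0.114). HSP90B1 differed by 0.84 (1.25e-06) and 0.33 (0.263), and MANF by 1.11 (1.72e-06) and 0.60 (0.0824). For HSPA6 the values were 1.67 (edgeR adjusted p = 9.52e-05) under AA132 and 0.03 (0.989) under AA147, and for ASNS 0.44 (0.000219) and 0.07 (0.885). CYP1A1 fell under both, by 2.25 (edgeR adjusted p = 4.28e-05) and by 1.81 (0.0143), as did TIPARP, by 0.94 (0.000166) and by 0.77 (0.0367). The median over the ATF6 list was 0.75 for AA132 and 0.37 for AA147, and over the AHR list -0.73 and -0.70.

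**Figure D3:**
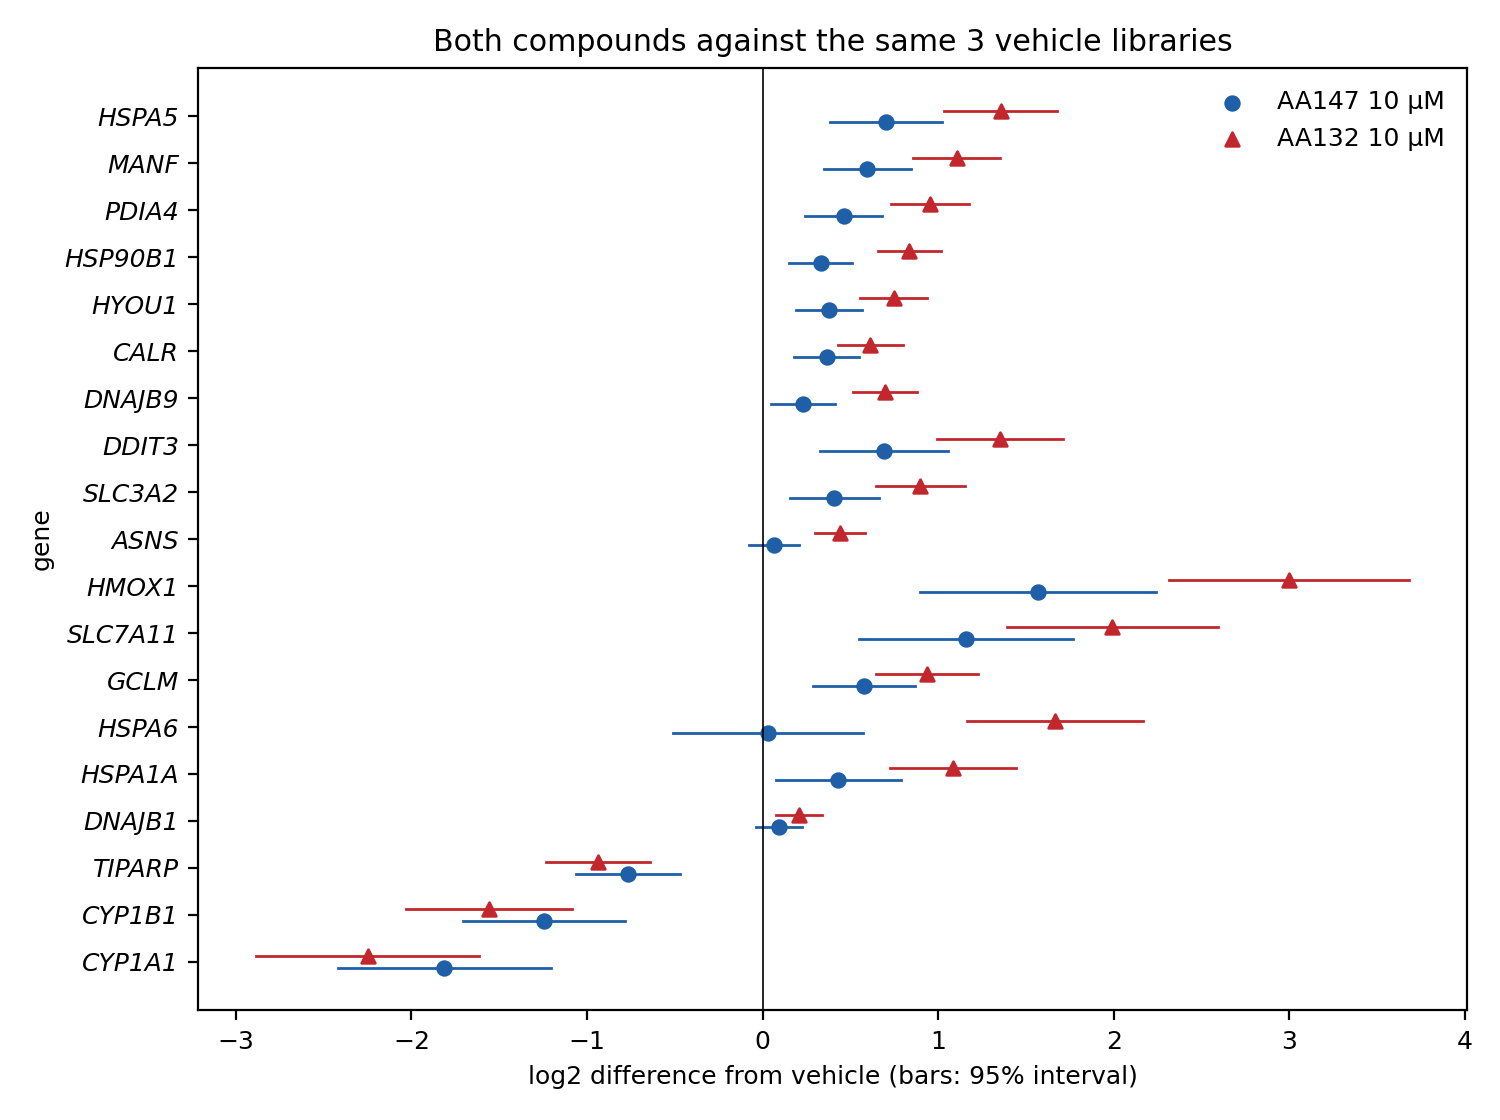
Log2 difference from vehicle with its 95% interval (x axis) for 19 genes (y axis) under AA147 10 µM (blue circles) and AA132 10 µM (red triangles). HSPA6 is at 1.67 for AA132 and 0.03 for AA147, while CYP1A1, CYP1B1 and TIPARP lie below 0 for both compounds with overlapping intervals.

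The neighbouring AA132 doses, whose libraries are in neither group compared, showed where the AA132 levels stood. HSPA6 averaged 4.04 ± 0.66 CPM at 6 µM and 6.94 ± 0.51 CPM at 15 µM (SD, n = 3), on either side of 5.38 ± 2.57 CPM at 10 µM. The mean under AA147 at 10 µM was 1.73 ± 0.36 CPM. HSP90B1 was at 2038 ± 40.4 CPM at 6 µM and 2215 ± 27.2 CPM at 15 µM. The ANKRD1 mean was 115, 117, 134 and 154 CPM at 0.1, 0.3, 1 and 3 µM, beside 109 CPM in vehicle. It was highest at 6 µM, at 184 ± 2.20 CPM. Above 6 µM the ANKRD1 mean was lower at each higher dose: 169 ± 11.7 CPM at 10 µM, 145 ± 22.4 CPM at 15 µM and 108 CPM at 30 µM. PIK3C2B averaged 17.1 ± 1.12 CPM at 10 µM, 22.1 ± 0.84 CPM at 6 µM and 21.5 ± 0.54 CPM at 15 µM. At 30 µM it averaged 18.9 ± 0.61 CPM. Differences between doses were not tested. Under Tg, for scale, HSPA5 averaged 11023 CPM, DNAJB9 58.4 CPM and HSPA6 1.16 CPM. CADPS2, lower under AA132 than under AA147, averaged 59.3 CPM under Tg and 40.2 CPM in vehicle.

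**Figure D4:**
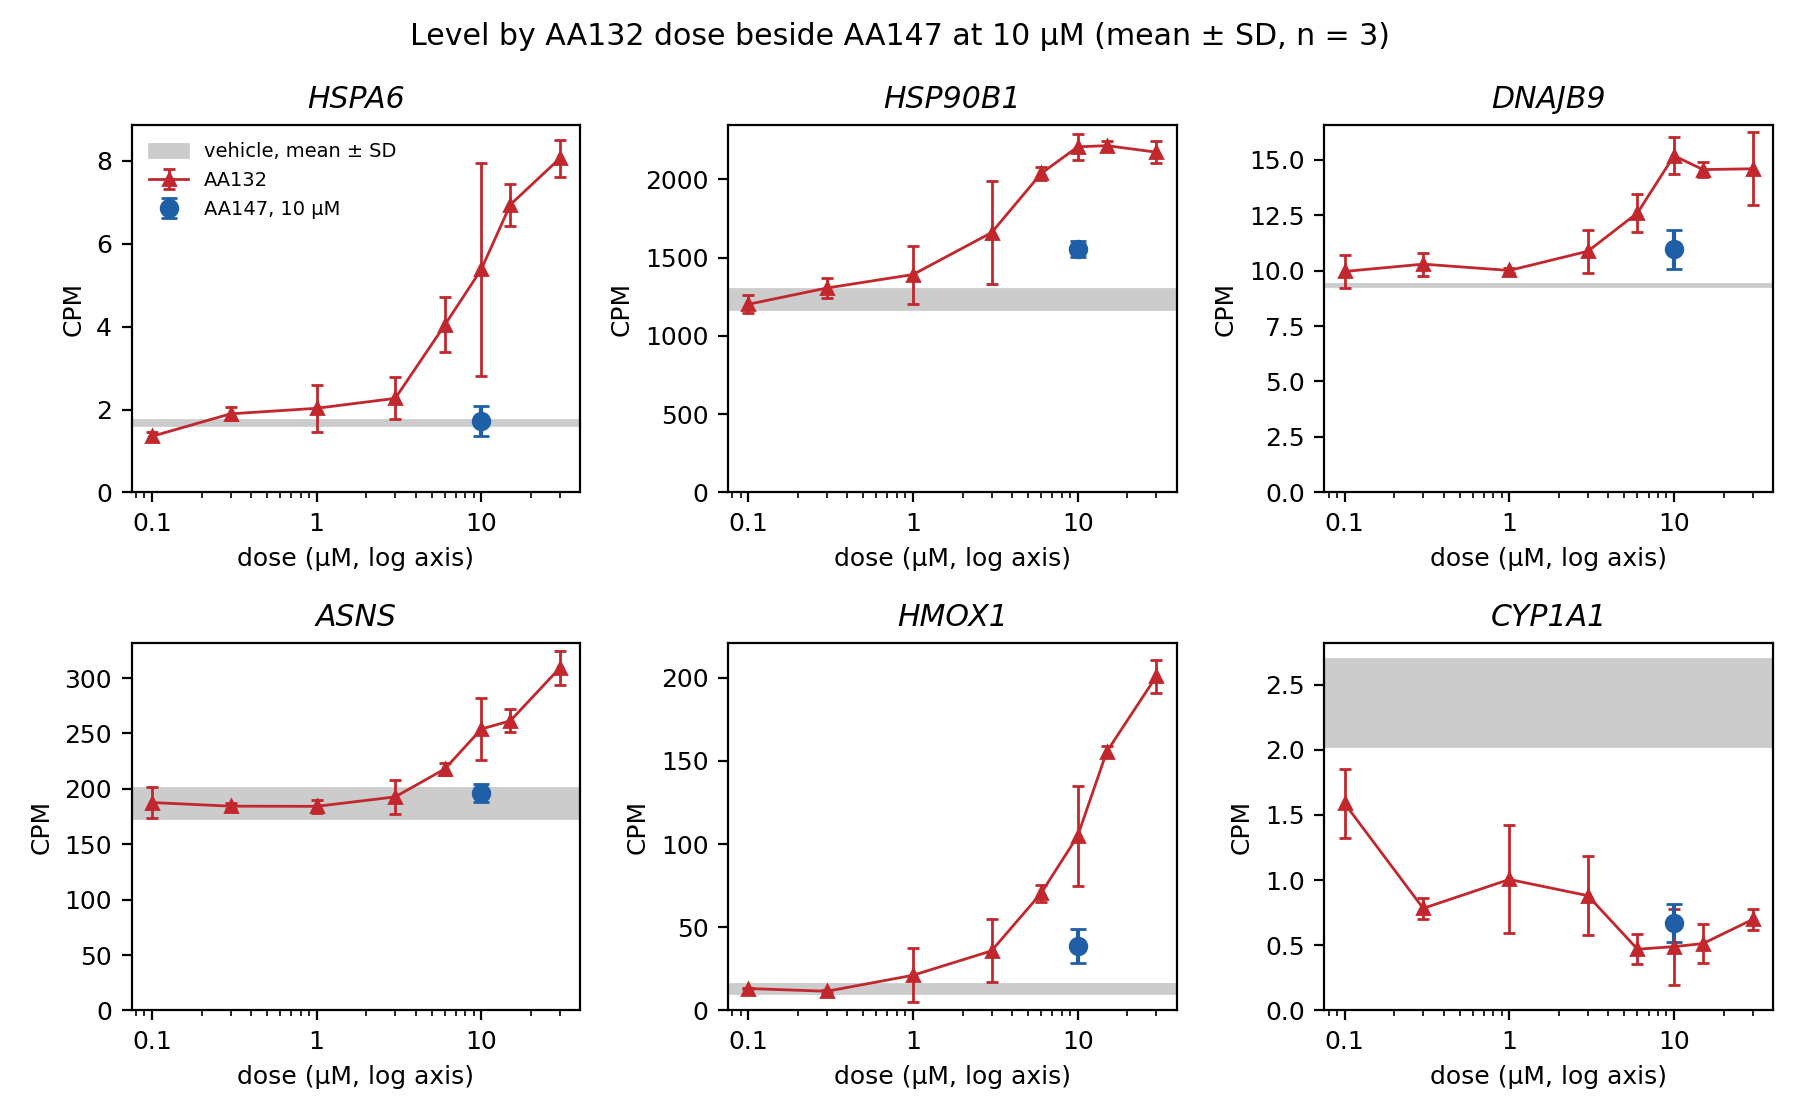
Mean CPM with SD (y axis, n = 3) of 6 genes by AA132 dose (x axis, µM, log axis; red triangles), with AA147 at 10 µM (blue circle) and vehicle (grey band, mean ± SD). HSPA6 under AA147, at 1.73 CPM, lies at the vehicle level, and HMOX1 under AA147, at 38.8 CPM, lies below AA132 at 10 µM, at 105 CPM.

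Genes that moved at both neighbouring doses were then followed in the 10 µM comparison. Libraries of those doses are in neither group compared. They were in the same fit, however, and so entered its shared spread and scaling, on which the calls below depend. These calls were lost when only the compared groups entered the fit. At 6 µM 190 genes differed from vehicle (1.07%) and at 15 µM 491 (2.76%). The 126 genes higher at both doses had a median difference between AA132 and AA147 of 0.25, with 124 positive (98.4%, beside 51.3% of all genes), 57 not overlapping with AA132 above (45.2%, beside 5.47%) and 8 called (0.0562% of all genes were called higher): ANKRD1, CDKN1A, DNAJB9, HSP90B1, HSPA6, TAC1, TMED2 and TVP23C-CDRT4. In the 23 genes lower at both doses, the median was -0.24, 22 were negative and 10 did not overlap with AA132 below (43.5%, beside 5.79% of all genes). Tg changed 5551 genes (31.2%). The 2875 higher under Tg had a median of 0.04, with 62.6% positive, and the 2676 lower had a median of -0.03. Of the 126 genes, 39 were not higher under Tg, and these had a median of 0.20 with 38 positive. ANKRD1, CDKN1A and HSPA6 were the called genes among those 39. Against vehicle, the 126 genes had a median of 0.51 under AA132 at 10 µM and 0.24 under AA147. The 23 genes had medians of -0.56 and -0.37. Both groups were chosen for moving under AA132 at doses around 10 µM, so their direction here is not independent evidence. The choice also used the same 3 vehicle libraries as these medians. Deviations of those libraries can therefore move the medians of both compounds in the chosen direction. No test was made on these groups of genes.

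**Figure D5:**
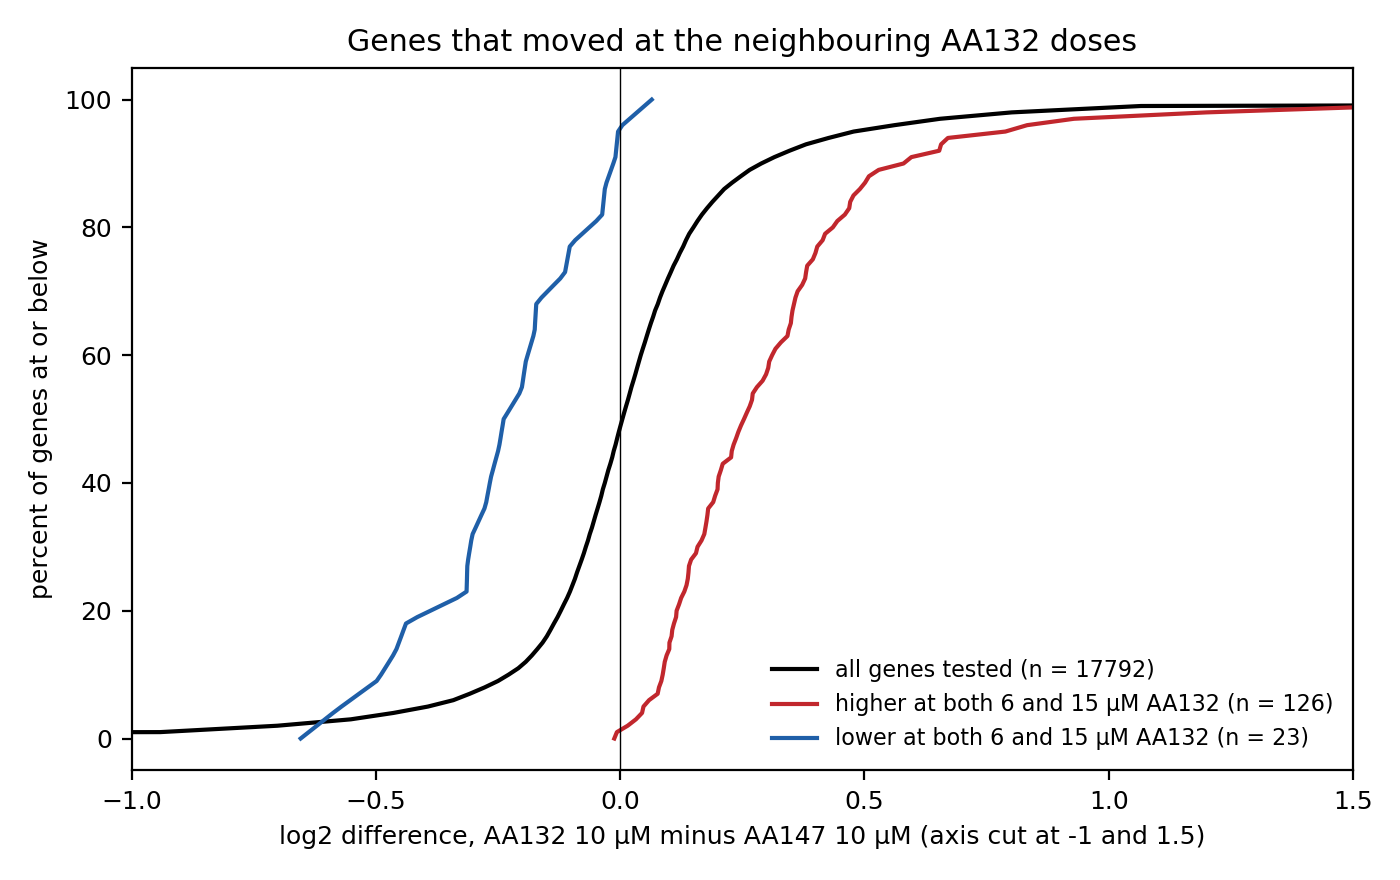
Percent of genes (y axis) at or below a given log2 difference between AA132 and AA147 at 10 µM (x axis) for all genes tested (black), 126 genes higher at both 6 and 15 µM AA132 (red) and 23 genes lower at both (blue). The red curve is shifted to a median of 0.25 and the blue curve to -0.24, while all genes centre at 0.00.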

How the data were processed

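Total RNA of HEK293T cells was made into libraries and read on DNBSEQ instruments by BGI, per the labels. The authors deposited a table of expected counts (estimated reads per gene, not scaled between libraries) for 33 columns. The submitters' processing notes name the build GRCh38.p7, while the aligner, counting tool and use of strand are not given in the sources used here. Values at the floor of 0.009 (43.5% of cells) were set to 0, 102 entries sharing 47 names were summed to leave 38019 genes, and counts were rounded.

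Differences were tested in R 4.3.3 with edgeR 4.0.16 (quasi-likelihood F-test), using TMM scaling, the edgeR filter on low counts (17792 genes kept), all 33 libraries in 1 fit without a replicate block, and Benjamini-Hochberg adjustment over all genes at 0.05. The common coefficient of variation between libraries was 9.09%. Intervals are 95% intervals of the fitted log2 difference. On simulated data of this size the test recovered 19.5%, 60.0% and 78.0% of genes changed 1.3-, 1.5- and 2-fold (200 genes each), with at most 3.11% false calls. The simulated libraries varied independently, with no library set apart from its replicates as library 1 was here. These rates may therefore not hold for the measured libraries. Gene positions (GRCh38) come from GENCODE v44, matched by symbol.

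The comparison, gene lists and named genes were chosen with earlier results of these data known. Named were all called genes, the markers HSPA6, DNAJB9 and HMOX1, the 5 largest differences each way (unadjusted p under 0.05, at least 1 CPM in the higher group, no overlap), the first member and the 4 lowest p of each list, and CYP1A1, CYP1B1, DDIT3, HSPA5 and DNAJB1. Other members are named only as list members. Some named list members are not reported here. Lists were described by counts and medians, with no test. Alternatives were size factors, DESeq2 1.42.0, filters, the conditions in the fit, a replicate block, robust shrinkage and leaving out each library. Leaving out library 1 of both compounds was chosen after seeing the data.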

Additional observations from a re-analysis of the deposited data

How the results depend on the processing

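None of the 12 called genes changed direction under the 19 alternatives tried. Of their 228 single values 149 kept an adjusted p under 0.05 and 79 did not. The count of calls was 12 with DESeq2's size factors in edgeR, 11 with upper quartile factors, 14 with a minimum of 1 CPM and 11 with robust shrinkage. It was 66 with DESeq2 and 99 with no filter on low counts (80 higher), each with all 12 among them. A fit of the 2 conditions alone gave 0 edgeR calls, and one with vehicle added also gave 0 (860 and 533 genes at an unadjusted p under 0.05). Leaving out 1 library gave 0 to 77 calls, and leaving out library 1 of both compounds gave 19. The replicate block gave 13 calls, 11 of them among the 12, and STAC lost its call. Same-numbered deviations of the compounds correlated at 0.18, 0.032 and 0.056 for libraries 1, 2 and 3. Those with different numbers correlated at -0.14 to 0.10, so library 1 of the compounds gave the highest value. All these values were low, and the numbers were not taken to pair the libraries.

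Leaving out 1 library, or library 1 of both compounds, moved list medians. They ran from 0.20 to 0.43 for integrated stress regulators, from -0.20 to -0.078 for immediate early genes, from 0.027 to 0.092 for housekeeping, from 0.059 to 0.14 for disulfide isomerases, from 0.010 to 0.23 for metallothioneins, from 0.034 to 0.098 for the XBP1s list and from -0.26 to -0.21 for genes lower at 6 and 15 µM. Uncalled genes near 0 changed sign in these fits: ACTB ran from -0.18 to 0.14, CDH2 from -0.14 to 0.039, AHRR from -0.054 to 0.34, MT2A from -0.0051 to 0.20, NEFL from -0.075 to 0.011, CD68 from -0.12 to 0.073 and SREBF2 from -0.096 to 0.013. The cause was not tested. With 3 libraries a group, 1.3-fold changes were mostly missed on simulated data.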

Other observations

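Immediate early genes, the transcription factors that switch on within minutes of a growth or stress signal, had a negative median, as AHR genes did. Of 12 members 8 were lower under AA132 than under AA147, with a median of -0.13 (-0.20 without either AA132 library 1 or AA147 library 2, and -0.078 without AA132 library 3) and 0 calls by edgeR (4 had an unadjusted p under 0.05, beside 8.01% of all genes). FOSB, a FOS family gene, had 0.968, 1.05 and 1.09 CPM under AA132 and 1.46, 1.72 and 1.84 CPM under AA147, with no overlap (log2 difference -0.69, edgeR adjusted p = 0.395). IER3, which encodes a regulator of cell survival, had 15.3, 18.9 and 16.7 CPM against 16.2, 24.1 and 29.7 CPM, with vehicle between 28.7 and 41.1 CPM (-0.46, edgeR adjusted p = 0.395). FOS differed by -0.35 and EGR3 by -0.70 (edgeR adjusted p = 0.714 and 0.617). Of the 4 higher members JUN, the partner of FOS, had the largest difference, with no overlap (0.19, edgeR adjusted p = 0.409).

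The sterol synthesis, metallothionein and housekeeping lists had small medians. So did the XBP1s list (0.07) and the genes of ER-associated degradation (0.05). Sterol synthesis genes had a median of 0.02 over 14 members (-0.059 without AA147 library 2 and 0.11 without AA147 library 1), with 9 higher and SQLE, squalene epoxidase, at -0.17 (edgeR adjusted p = 0.582). Of 8 genes of the metallothionein list, 5 were tested and their median was 0.08. The zinc exporter gene SLC30A1 had 35.6, 30.2 and 29.2 CPM under AA132 and 32.1, 24.2 and 26.8 CPM under AA147, against 17.7 to 23.3 CPM in vehicle (0.19, -0.04 to 0.42, edgeR adjusted p = 0.713). In both groups library 1 was the highest. The 12 housekeeping genes had a median of 0.04, and none passed. SDHA, a subunit of respiratory complex II, differed by -0.18 (edgeR adjusted p = 0.446).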
